A study of Mus musculus with 3 samples.

Results

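Small leucine-rich proteoglycans and a pair of matrix-associated proteins, 9 of the 22757 genes with a symbol in the expression table, were followed across 3 mouse pancreatic tumour cell lines. The proteoglycans are biglycan (Bgn), decorin (Dcn), asporin (Aspn), lumican (Lum), fibromodulin (Fmod), prolargin (Prelp) and osteoglycin (Ogn). The other two are matrix Gla protein (Mgp) and pigment epithelium-derived factor (Serpinf1), which are secreted matrix-associated proteins of other families. All 9 symbols were found. The genes were chosen by family and with their FPKM values in these same libraries already known, so every difference below is a description and none was tested. FPKM is a fragment count scaled to transcript length and to the mapped fragments of the library, so levels can be set side by side between genes.

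All 3 lines share a transgenic p16-/- genotype and were grown from mouse tumours without an immortalization step. HI-Panc-L is labelled localized, HI-Panc-I invasive and HI-Panc-M metastatic, with 1 RNA-seq library each (n = 1). All were kept in DMEM with 10% fetal bovine serum. A shared treatment text describes cobalt chloride, a chemical mimic of hypoxia, at 100 ng/ml for 24 h, without saying whether these particular cultures received it. By tissue label, HI-Panc-L is from body wall, HI-Panc-I from pancreatic tissue and HI-Panc-M from liver. Groups follow the stage label here, and exchanging HI-Panc-L and HI-Panc-I would exchange their values. The sources used here do not say whether a line is a single clone. With 1 library per stage there is no replicate spread, and line, stage and library cannot be told apart.

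Small leucine-rich proteoglycans are secreted core proteins built from repeated leucine-rich segments, many of which carry chondroitin, dermatan or keratan sulfate chains. They bind fibrillar collagen and set the diameter and spacing of fibrils, and several also hold growth factors such as TGF-beta in the matrix or bind cell-surface receptors. In tissue they are made chiefly by fibroblasts, chondrocytes and other mesenchymal cells, and decorin and lumican are prominent in the fibrous stroma of pancreatic tumours. Mgp is a small vitamin K-dependent protein that restrains calcification and binds bone morphogenetic proteins. Serpinf1 encodes a secreted serpin without protease-inhibiting activity that binds collagen and restrains blood vessel growth.

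RefSeq promoter windows (GRCm38.p6) were at hand for 6 of the 9 genes: Bgn, Aspn, Fmod, Prelp, Ogn and Serpinf1. Those of 3 genes are printed because they belong to the abundant gene with the widest range of FPKM over the libraries (Bgn), a low gene detected mainly in the localized library (Ogn) and the gene whose level differed least in relative terms (Prelp). Each runs 5′ to 3′ up to the base before the RefSeq transcription start, or before the first annotated exon for Prelp, and capitals mark the motifs described next. Gene coordinates given further below are from GENCODE. Its starts for Bgn and Ogn (73483602 and 49608046) lie slightly downstream of the RefSeq starts used for the windows.

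Bgn, chrX:73483351-73483600, plus strand: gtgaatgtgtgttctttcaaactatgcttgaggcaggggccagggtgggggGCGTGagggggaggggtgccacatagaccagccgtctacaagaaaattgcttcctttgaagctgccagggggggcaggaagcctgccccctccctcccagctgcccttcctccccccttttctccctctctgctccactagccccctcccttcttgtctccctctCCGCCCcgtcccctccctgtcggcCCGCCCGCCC

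Ogn, chr13:49607765-49608014, plus strand: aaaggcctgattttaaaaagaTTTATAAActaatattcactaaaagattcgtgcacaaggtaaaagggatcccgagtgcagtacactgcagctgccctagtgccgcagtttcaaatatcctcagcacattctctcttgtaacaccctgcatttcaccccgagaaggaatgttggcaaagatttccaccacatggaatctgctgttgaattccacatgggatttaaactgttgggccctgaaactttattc

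Prelp, chr1:133921415-133921651, minus strand: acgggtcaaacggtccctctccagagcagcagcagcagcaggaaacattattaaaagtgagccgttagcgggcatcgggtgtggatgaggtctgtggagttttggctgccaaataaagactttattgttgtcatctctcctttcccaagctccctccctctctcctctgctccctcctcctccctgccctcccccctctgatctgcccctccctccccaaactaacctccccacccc

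The 7 short motifs searched, on both strands, were TATAAA (the TATA box), GGGCGG (the GC box), CCAAT (the box bound by NF-Y), TGANTCA (the AP-1 site), the hypoxia response element cores ACGTG and, in its other form, GCGTG, and CAGGTG (an E-box bound by Snail and Zeb factors). The Bgn window held 3 GC boxes, starting 34, 10 and 6 bases before the transcription start with the last pair overlapping, and 1 GCGTG. The Ogn window held TATAAA on both strands in 1 overlapping stretch, 229 bases before the start. The 237 bases of Prelp held none of the 7, although its full window of 250 bases, which includes exon bases, held 1 CCAAT. Of all 32851 windows of 250 bases in the RefSeq table, 12.4% held TATAAA, 32.7% GGGCGG, 33.8% CCAAT, 6.75% TGANTCA, 16.6% ACGTG, 28.2% GCGTG and 17.2% CAGGTG. The G and C content of the Bgn window was at percentile 81.6 of all windows and that of Ogn at percentile 15.9, around a median of 52.4%. The printed windows of Bgn and Ogn, which were both highest in the localized library, therefore had no motif of the 7 in common. These matches describe letters in a window and were not tied to binding of any factor.

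The summed level of all genes was 565009 to 575244 FPKM per library, and 11112 to 11219 genes reached 1 FPKM. Low FPKM values fell on steps of whole fragments for 80.7% to 81.2% of the 471 to 597 genes used in each library, where evenly spread values would give 20%, and these steps gave estimated depths of 45300000, 40800000 and 43300000 fragments for localized, invasive and metastatic. Fragment numbers and 95% intervals below come from these estimates and cover counting error only. The text below gives values in the order localized, invasive, metastatic.

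Biglycan, a class I member with a pair of glycosaminoglycan chains and a ligand of Toll-like receptors, was the most abundant of the 9 in the localized library. Bgn (ENSMUSG00000031375.17, GRCm38 chromosome X, 73483602 to 73495933, plus strand) had 535, 19.1 and 0.354 FPKM, or about 54231, 1745 and 34 fragments. By level it held rank 152 among 22734 genes in the localized library, and ranks 4531 and 12088 in the others. The localized library was thus far above the other two, and the invasive library was well above the metastatic one. The localized level was 28.0 times the invasive level (95% counting interval 26.7 to 29.4) and 1512 times the metastatic level (1091 to 2202). The invasive level was 54.0 times the metastatic level (38.8 to 78.9). Among 11404 genes with a mean of at least 1 FPKM, Bgn had the lowest difference of all for metastatic against localized, -8.63 in log2(FPKM + 1).

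Decorin, the other well-known class I member, carries a single chain and binds collagen, TGF-beta and receptor tyrosine kinases. Dcn (ENSMUSG00000019929.16, chromosome 10, 97479609 to 97518143, plus strand) had 54.4, 0.071 and 0.014 FPKM, which corresponds to about 3887, 5 and 1 fragments. It was an abundant transcript in the localized library and close to the detection limit in the other two, which could not be ordered at this depth (ratio 4.99, counting interval 0.594 to 251). The localized level was 766 times the invasive level (299.8 to 2158), and against the single metastatic fragment the ratio was 3821 (666 to 146800). The Bgn level was 9.83, 269 and 24.9 times the Dcn level in the 3 libraries, the last pair of ratios resting on the 5 and 1 Dcn fragments. Asporin, the class I member without a chain attachment site, was barely detected. Aspn (ENSMUSG00000021388.14, chromosome 13, 49544443 to 49567565, plus strand) had 0.122, 0 and 0.021 FPKM, about 12, 0 and 2 fragments. Its localized level was 3.60 times a floor of 3 fragments set in place of 0 for the invasive library, a ratio without the counting error of the 12 fragments. Aspn exons overlap exons of Cenpp, a kinetochore gene on the opposite strand with 29.2, 15.7 and 9.96 FPKM. Without strand information its few fragments cannot be told apart from those of Cenpp.

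Among the class II members, which carry keratan sulfate or sulfated tyrosines, the pattern was split. Lumican, a regulator of fibril spacing in the cornea and dermis, was low in the localized library and near 0 in the other two. Lum (ENSMUSG00000036446.5, chromosome 10, 97565128 to 97572703, plus strand) had 1.499, 0.013 and 0 FPKM, or about 154, 1 and 0 fragments. Its localized level was 117 times the invasive level (24.5 to 5514). It was 49.1 times a floor of 3 fragments set in place of 0 for the metastatic library, a ratio without the counting error of the 154 fragments. Fibromodulin, which competes with lumican for a collagen site, was near the limit everywhere. Fmod (ENSMUSG00000041559.7, chromosome 1, 134037254 to 134048277, plus strand) had 0.041, 0.018 and 0.0086 FPKM from about 5, 2 and 1 fragments, and no ratio between libraries had a counting interval above or below 1.

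Prolargin, a class II member that anchors basement membranes to the underlying collagen, stood against this. Prelp (ENSMUSG00000041577.5, chromosome 1, 133910304 to 133921414, minus strand) had 3.13, 2.64 and 2.87 FPKM, from about 487, 370 and 426 fragments. Its level was similar in all 3 libraries. The localized level was 1.19 times the invasive (1.03 to 1.36) and 1.09 times the metastatic level (0.958 to 1.25), so the first interval lies just above 1 and the second includes 1. An antisense gene, Gm15851, overlaps Prelp and was not analysed here.

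Osteoglycin is a class III member found in bone, vessel wall and cornea. Ogn (ENSMUSG00000021390.6, chromosome 13, 49608046 to 49624501, plus strand) had 1.09, 0.021 and 0.0097 FPKM, or about 118, 2 and 1 fragments. The localized level was 53.2 times the invasive level (14.4 to 444) and 112 times the metastatic level (19.9 to 4492). The invasive and metastatic libraries could not be ordered. Ogn also lies inside Cenpp on the opposite strand, but none of its exons overlaps an annotated Cenpp exon.

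**Figure D1:**
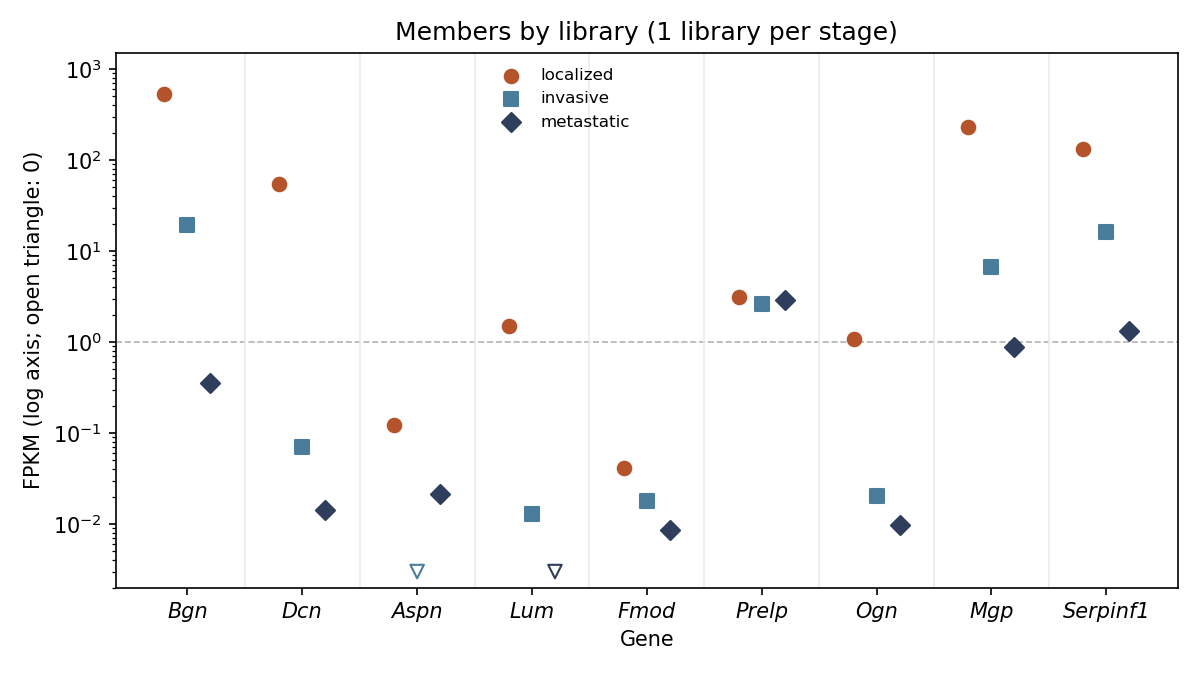
FPKM of each of the 9 genes (log axis) in the localized, invasive and metastatic libraries, 1 point per library with no error bar because n = 1; an open triangle stands for 0 and the dashed line for 1 FPKM. Bgn, Mgp and Serpinf1 step down across the 3 libraries, Dcn, Lum and Ogn are near the limit in the invasive and metastatic libraries, and Prelp stays between 2.64 and 3.13 FPKM.

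The pair of genes outside the family followed the stepwise order of Bgn. Mgp (ENSMUSG00000030218.2, chromosome 6, 136872435 to 136875823, minus strand) had 229.8, 6.66 and 0.877 FPKM, or about 4549, 119 and 17 fragments. The localized level was 34.5 times the invasive level (28.7 to 41.7) and the invasive level 7.59 times the metastatic level (4.45 to 13.2). Serpinf1 (ENSMUSG00000000753.15, chromosome 11, 75409769 to 75422701, minus strand) had 131, 16.1 and 1.33 FPKM, or about 9812, 1086 and 95 fragments. The localized level was 8.13 times the invasive level (7.64 to 8.67) and the invasive level 12.1 times the metastatic level (9.83 to 15.1). The 3 genes share the order of the libraries but not the size of the steps. Mgp had the larger ratio between localized and invasive, whereas Bgn and Serpinf1 had the larger ratio between invasive and metastatic.

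The make-up of the group differed as well as its amount. Summed over the 9 genes, the level was 956, 44.6 and 5.48 FPKM, which is 0.167%, 0.0078% and 0.00097% of all FPKM. The 7 proteoglycans alone summed to 595, 21.9 and 3.27 FPKM. Bgn made up 89.9% and 87.4% of this proteoglycan sum in the localized and invasive libraries and 10.8% in the metastatic library. Prelp made up 0.526%, 12.1% and 87.6%, so most of the sum over these 7 genes in the metastatic library was prolargin. Dcn was second in the proteoglycan sum of the localized library with 9.14% and had 0.325% and 0.435% in the other two. Serpinf1 took a larger share of the 9-gene sum in the invasive library (36.1%) than in the localized (13.7%) or metastatic library (24.3%). In bulk RNA, a smaller fraction of cells making a transcript and less transcript per cell cannot be told apart.

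**Figure D2:**
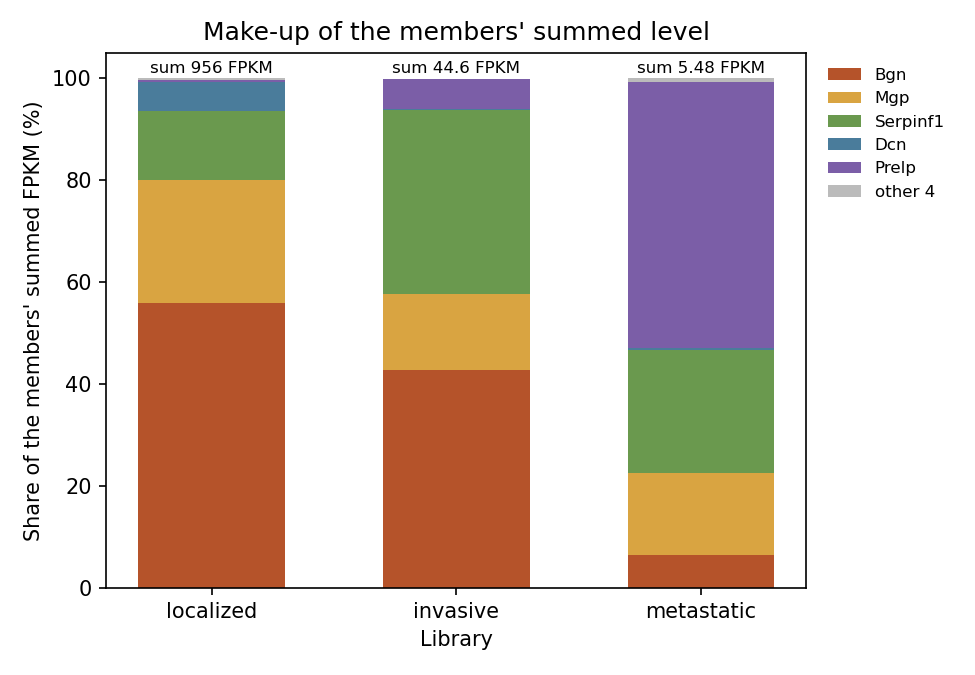
Share of the summed FPKM of the 9 genes held by Bgn, Mgp, Serpinf1, Dcn, Prelp and the other 4 together (stacked bars, percent), with the sum above each bar, for 1 library per stage. Bgn is the largest part in the localized and invasive libraries (55.9% and 42.8%) and Prelp in the metastatic library (52.3%).

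For counts, a gene was called higher or lower where log2(FPKM + 1) differed by at least 1, which is 2-fold on that scale and understates the fold of low genes. All counts are over the 9 genes, of which 5 (Bgn, Dcn, Prelp, Mgp and Serpinf1) reached the mean of 1 FPKM and 4 did not. Invasive against localized, 6 of 9 were lower (Bgn, Dcn, Lum, Ogn, Mgp and Serpinf1) and 0 higher, with a median difference of -1.30. In that comparison 6.07% of the 11404 genes with a mean of at least 1 FPKM were lower and 8.78% higher, and without the filter 3.48% of 22734 genes were lower. Metastatic against localized, the 6 lower genes were again these and 0 were higher, with a median of -1.32. The background there was 7.29% lower and 9.08% higher, and 4.14% lower without the filter. Metastatic against invasive, 3 of 9 were lower (Bgn, Mgp and Serpinf1) and 0 higher, with a median of -0.02. The background was 1.67% lower and 1.33% higher, and 0.897% lower without the filter. The median difference of all genes past the filter was 0.00, 0.00 and -0.01 in the 3 comparisons. The genes were picked with these values in view, and each library enters a pair of the comparisons, so the counts are neither independent of the choice nor of each other.

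Differences of the called genes spanned a wide range. Invasive against localized they ran from -5.69 for Dcn, through -4.91 for Mgp, -4.74 for Bgn and -2.95 for Serpinf1, to -1.30 for Lum and -1.04 for Ogn. Metastatic against localized they were -8.63 for Bgn, -6.94 for Mgp, -5.83 for Serpinf1, -5.77 for Dcn, -1.32 for Lum and -1.05 for Ogn. The nearest genes on the other side of the threshold were Prelp (-0.18) in the first and Aspn (-0.14) in the second comparison. Metastatic against invasive, Bgn had -3.89, Serpinf1 -2.88 and Mgp -2.03, and the next was Dcn with -0.08. The call of Ogn was the least secure: without subtracting 0.1 its differences from localized were -0.97 and -0.98 and it was not called. Low genes depended strongly on the pseudocount: with 0.1 in place of 1, invasive against localized gave -3.83 for Lum, -3.31 for Ogn and -1.15 for Aspn, which then passed the threshold.

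**Figure D3:**
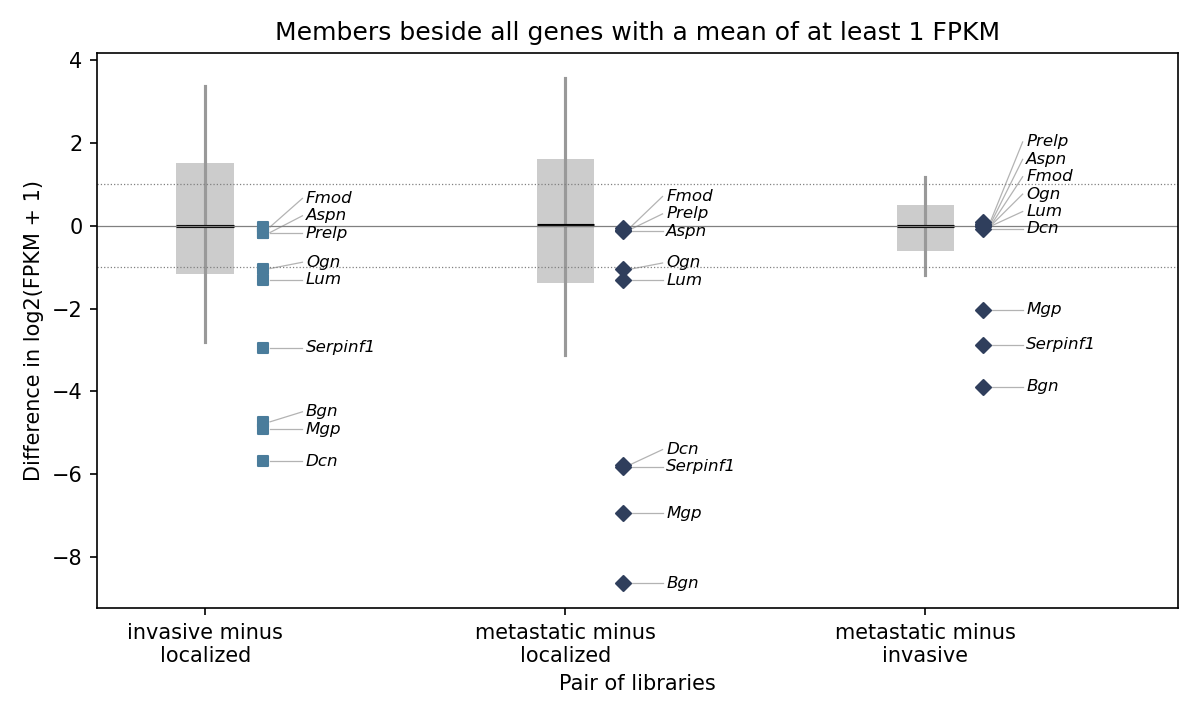
Difference in log2(FPKM + 1) of the 9 genes (labelled points) for the 3 pairs of libraries, beside the 5th to 95th percentile (grey bar), 1st to 99th percentile (line) and median (black) of the 11404 genes with a mean of at least 1 FPKM; dotted lines mark 2-fold. Bgn, Mgp and Serpinf1 lie below the 1st percentile in each pair, Dcn in the pairs with the localized library, and Prelp lies near 0 in all.

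Most proteoglycan genes of the family sit in chromosome clusters, and neighbours within a cluster differed widely in level. On chromosomes 10 and 13 each detected gene was highest in the localized library, although Ecm2 and Aspn were near the limit. On chromosome 10 the order is Dcn, Lum, Kera, Epyc, with Dcn and Lum 47.0 kb apart. Dcn and Lum were both highest in the localized library, at 54.4 and 1.499 FPKM, while keratocan (Kera, of the cornea) and epiphycan (Epyc, of growth cartilage) were at 0 in every library. On chromosome 13 the order is Ecm2, Aspn, Omd, Ogn. Osteomodulin, Omd, a bone matrix member, had 5.36, 0.555 and 0.439 FPKM and was the highest of this cluster in each library. Ecm2, a leucine-rich relative, had at most 0.070 FPKM. On chromosome 1, Prelp lies between opticin (Optc, of the eye, at most 0.044 FPKM) and Fmod, 115.8 kb away, so the gene at a steady level is flanked by a pair near the limit.

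**Figure D4:**
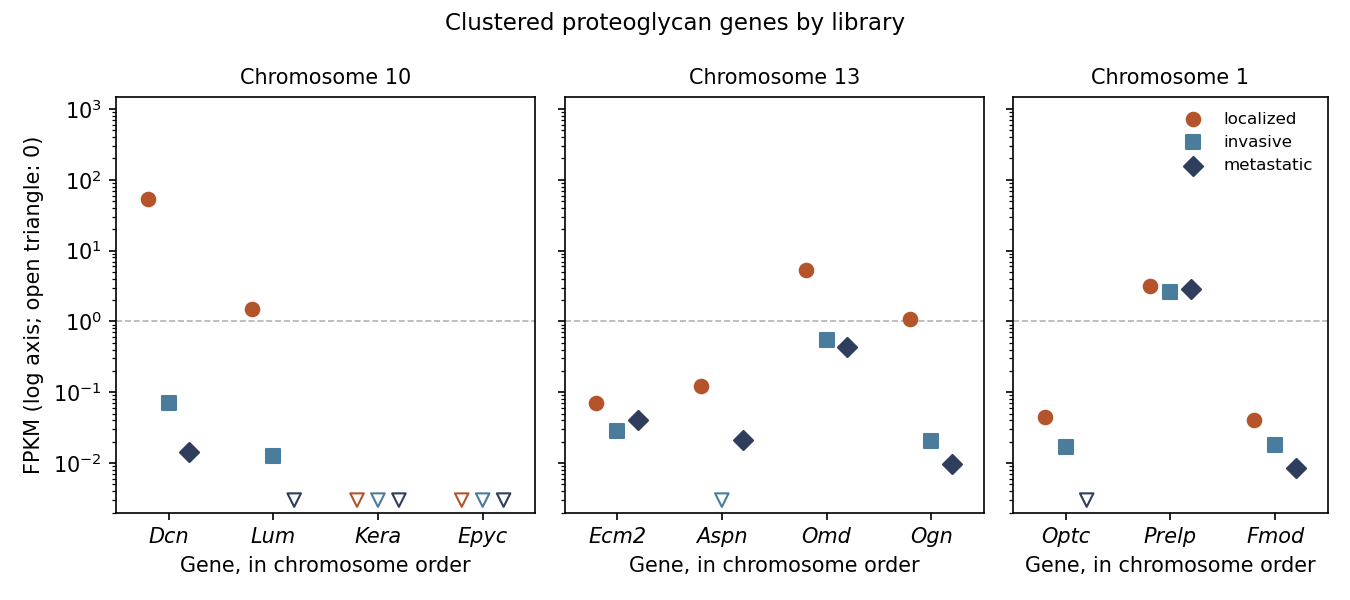
FPKM (log axis) of the clustered proteoglycan genes in chromosome order, 1 point per library; open triangles stand for 0 and the dashed line for 1 FPKM. Dcn, Lum, Omd and Ogn are highest in the localized library, Kera and Epyc are at 0 in all 3, and Prelp alone is level between low neighbours.

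The nearest listed genes on each side, without the members themselves, gave 13 flanking genes in all. One was at least 2-fold lower in the invasive and metastatic than in the localized library (Omd) and 1 was higher (Btg2, an antiproliferative gene beside Fmod, with 5.10, 35.4 and 22.96 FPKM). Over the genes past the filter, 6.07% were lower and 8.78% higher invasive against localized. Metastatic against localized, 7.29% were lower and 9.08% higher. Haus7 and Atp2b3 beside Bgn had 14.7, 23.9 and 19.5 FPKM and at most 0.0067 FPKM. Btg1, the nearest gene on the other side of Dcn at 856.8 kb, had 46.2, 32.2 and 34.0 FPKM. Smyd4 next to Serpinf1 had 4.96, 5.21 and 3.57 FPKM, and its relative Serpinf2 on the other side had at most 0.065 FPKM. Apart from the family member Omd, no flanking gene was at least 2-fold lower against the localized library. However, Atp2b3, Ecm2, Kera, Optc, Art4, Erp27 and Serpinf2 were so near 0 in every library that they could not have been called lower. Cenpp, which overlaps Aspn and Ogn, was not counted as flanking and differed by -1.46 metastatic against localized.

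Of the 10 other family members listed, all were in the table, 3 reached a mean of 1 FPKM and 2 (Kera and Epyc) were at 0 throughout. Omd and podocan-like 1 (Podnl1, class V, with 4.21, 0.357 and 0.194 FPKM) were lower in both the invasive and metastatic libraries than in the localized one, and 0 were higher. Tsukushi, Tsku, a class IV member that binds several signalling ligands, had 12.0, 12.4 and 12.2 FPKM. It exceeded Prelp and was the highest proteoglycan-family gene of the metastatic library among those listed. Podocan itself, Podn, had 0.205, 0.423 and 0.286 FPKM. Chad and Nyx stayed under 0.1 FPKM in all libraries. Over the family as listed, Tsku and Prelp were the genes at steady levels above 1 FPKM.

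Counts over the lists that follow are over all listed genes, beside background shares of 6.07% lower and 8.78% higher (invasive against localized) and 7.29% and 9.08% (metastatic against localized) over the genes past the filter. Metastatic against invasive, these shares were 1.67% and 1.33%. Genes for the sugar chains were mostly detected in all 3 lines. The linker region and chondroitin or dermatan sulfate chains are made by 27 listed genes, of which 22 reached the mean of 1 FPKM. Invasive against localized, 5 were lower (Pxylp1, Csgalnact1, Dse, Chst15 and Ust) and 1 higher (Chst11), with a median over the 22 of -0.33. Metastatic against localized, 5 were lower (Pxylp1, Csgalnact1, Chst7, Chst15 and Ust) and 2 higher (Chst11 and Papss2), with a median of -0.21. Chst11, a chondroitin 4-O-sulfotransferase, had 0.929, 23.3 and 24.1 FPKM, so it was lowest in the localized library, where Bgn and Dcn were highest. Chst15, which adds the 6-O-sulfate to 4-sulfated units, had 5.67, 0.380 and 1.15 FPKM, and the phosphatase Pxylp1, which releases linker phosphate, 17.1, 3.46 and 3.11 FPKM. Dse, the epimerase that turns chondroitin into dermatan sulfate, had 18.6, 8.63 and 10.7 FPKM and was named after its value was seen, as were Csgalnact1, Ust and Papss2. Of 12 keratan sulfate genes, 8 reached the mean, with medians of 0.06 and 0.03 against localized. Chst1, the keratan sulfate galactose 6-O-sulfotransferase, was the 1 lower gene in each comparison with 51.7, 6.68 and 1.86 FPKM. The galactosyltransferase B4galt4 had 1.63, 1.93 and 7.73 FPKM and was the 1 higher gene in the metastatic library.

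Several collagens, fibrillar ones among them, are binding partners of these proteoglycans. Of 13 listed collagen genes, 8 were lower and 0 higher in both comparisons with the localized library, with medians of -2.42 and -4.07 over the genes past the filter, which include Col5a1 but not Col11a1, the least abundant of those called (both named after their values were seen). Col1a2, a chain of type I collagen, had 177, 33.4 and 0.083 FPKM, Col6a3 44.0, 1.87 and 0.047 FPKM and Col6a2 54.8, 3.43 and 2.10 FPKM. Metastatic against invasive, 5 were lower and 0 higher (Col1a1, Col1a2, Col5a2, Col6a1 and Col6a3, in part named after their values were seen). Over the genes past the filter, 1.67% were lower and 1.33% higher in that comparison. Col5a1, a chain of type V collagen, differed least of the abundant ones, with 18.0, 16.8 and 9.46 FPKM and no call. Among 19 genes of fibril assembly, 8 were lower and 1 higher invasive against localized, and 9 were lower and 2 higher metastatic against localized, with medians of -2.12 and -2.43 over the 13 genes past the filter. The collagen crosslinker Lox had 73.96, 1.49 and 0.305 FPKM, thrombospondin 2 (Thbs2) 26.5, 2.09 and 0.036 FPKM and the procollagen C-proteinase enhancer Pcolce 414, 45.0 and 49.5 FPKM. Its relative Pcolce2 was among the higher genes with 7.34, 15.4 and 21.3 FPKM and fibulin 1 (Fbln1) the other with 4.15, 13.7 and 13.1 FPKM, both named after their values were seen.

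Proteases reported to cut these core proteins gave 3 of 10 lower genes in both comparisons with the localized library and 0 higher, with medians of -3.17 and -4.13 over the 5 genes past the filter alone. These were Htra1 (90.5, 9.05 and 2.40 FPKM), Mmp3 (24.1, 0.733 and 0.213 FPKM) and Mmp2 (17.9, 1.10 and 0.080 FPKM), and both medians are the values of Mmp2. The remaining genes past the filter were not called: Mmp14 had 75.97, 132.8 and 105.5 FPKM and Mmp13 10.8, 10.4 and 17.8 FPKM (named after their values were seen). Of 19 listed receptors and signalling partners, 2 were lower (P2rx7 and Wisp1) and 2 higher (Egfr and Ctgf) invasive against localized, and 3 were lower (Lrp1, P2rx7 and Wisp1) and 1 higher (Egfr) metastatic against localized. The medians over the 15 past the filter were 0.00 and -0.13. Egfr, a receptor that decorin binds, had 2.77, 8.51 and 8.16 FPKM. The Toll-like receptors for biglycan and decorin were present in each line, Tlr2 with 6.20, 4.03 and 3.33 FPKM and Tlr4 with 11.2, 13.4 and 14.8 FPKM (named after their values were seen).

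For Mgp, the modifying enzymes Ggcx and Vkorc1 were detected in each library and neither was called, although Vkorc1 differed from localized by -0.45 (invasive) and -0.57 (metastatic). Ggcx, the carboxylase that makes its Gla residues, had 8.33, 8.95 and 7.58 FPKM, and the vitamin K reductase Vkorc1 had 68.3, 49.9 and 45.5 FPKM (both singled out after their values were seen). Of the 15 genes of carboxylation and Gla proteins, Gas6 had the largest absolute difference over the 3 comparisons, with 2.01, 24.5 and 49.97 FPKM. Gas6, a ligand of TAM receptors that is itself a Gla protein, was higher in all 3. Metastatic against invasive it lay at the threshold, with a difference of 1.0013. Fam20c, the kinase of secreted proteins, had 34.4, 53.0 and 75.8 FPKM and was higher metastatic against localized. Prrg1, a transmembrane Gla protein, had 2.73, 0.260 and 0.908 FPKM and was the 1 lower gene, invasive against localized. The medians over the 10 genes past the filter were 0.04 and -0.02. Bone morphogenetic protein 4, Bmp4, a ligand that Mgp binds, had 20.3, 9.15 and 3.04 FPKM and was the 1 called gene of 8 in each comparison, on the lower side, with medians over the 5 genes past the filter of 0.03 and -0.31 against localized. Bmp2 had 10.5, 5.83 and 7.38 FPKM.

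For Serpinf1, the listed receptors did not share a direction. Pnpla2, a lipase to which the protein binds, had 16.5, 37.2 and 36.9 FPKM and was higher in both comparisons with localized, whereas Plxdc1 had 1.82, 0.090 and 0.0085 FPKM and was lower. Among the serpins listed, the collagen chaperone Serpinh1 had 389, 111 and 91.2 FPKM. Of the 9 genes listed, 3 were lower in each comparison with localized (Plxdc1, Serpinh1 and Serpine2, the last named after its values were seen). The medians over the 6 past the filter were -0.02 and -0.105.

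**Figure D5:**
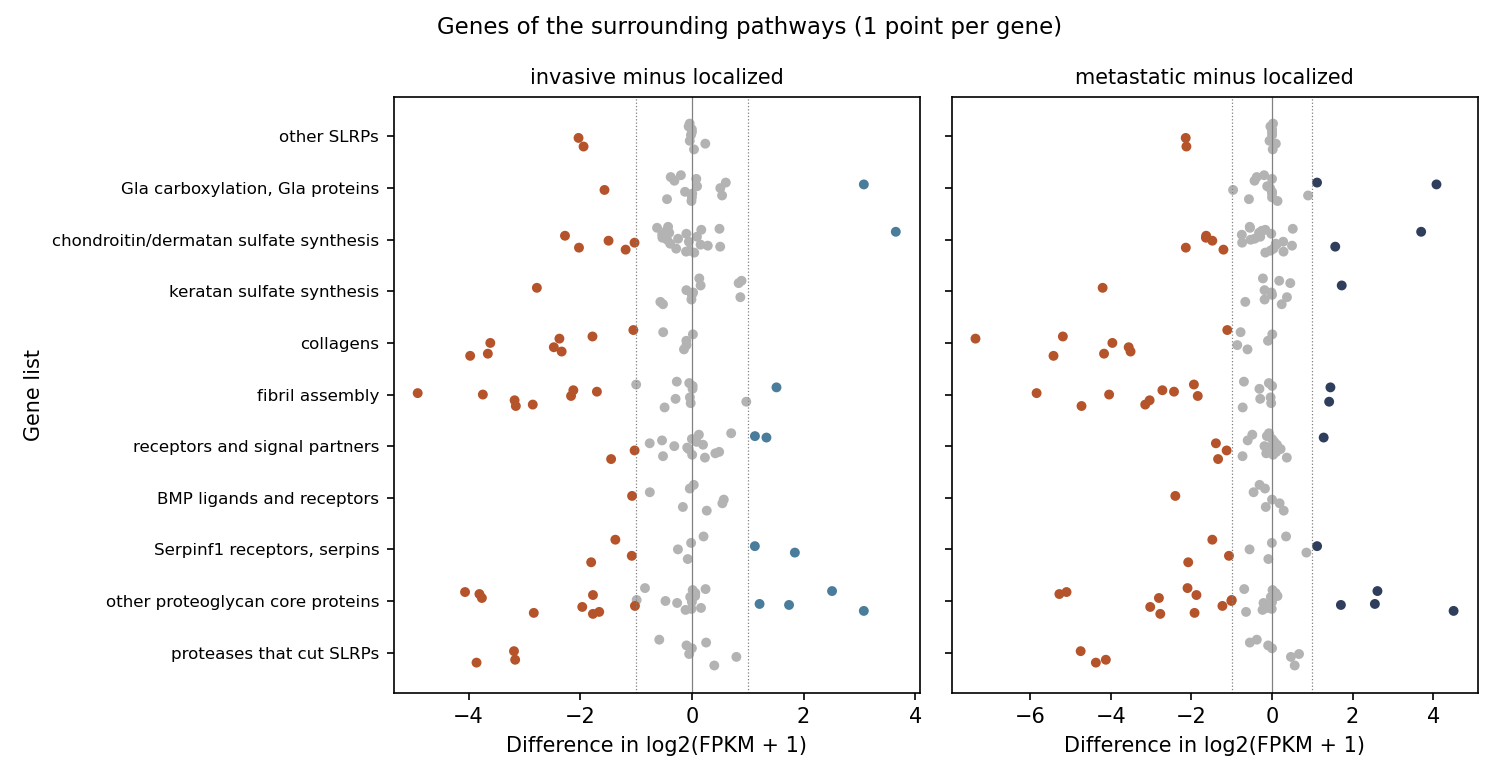
Difference in log2(FPKM + 1) of every gene of the 11 surrounding lists, 1 point per gene, for invasive minus localized and metastatic minus localized; coloured points lie past 2-fold (dotted lines). Collagens, proteases, other family members and the BMP list have called genes on the lower side only, and the other lists have called genes on both sides in at least 1 of the pairs.

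Markers of cell types that could carry these transcripts also differed between the lines. Of 12 fibroblast markers, 6 were lower and 0 higher in both comparisons with the localized library (Pdgfra, Pdgfrb, Thy1, Prrx1, Twist1 and Dpt). Their defining receptor Pdgfra had 42.7, 1.09 and 1.98 FPKM, Prrx1 83.7, 4.34 and 1.16 FPKM and dermatopontin, Dpt, 5.21, 0 and 0.016 FPKM. Fap stayed under 0.1 FPKM and Tcf21 at 0 in all 3 libraries, and the summed list was 9907, 6020 and 5757 FPKM, carried by S100a4 and Vim. The order of Pdgfra and Twist1 was not that of Bgn, since the metastatic library was above the invasive one (Twist1 61.9, 6.13 and 13.5 FPKM). Of 10 epithelial markers, 6 were higher invasive against localized, 7 were higher metastatic against localized and 0 were lower, with sums of 1195, 6295 and 6804 FPKM. Epcam reached only 1.31 FPKM in the invasive and 2.63 FPKM in the metastatic library. Cldn4 and Esrp1 (named after their values were seen) stayed under 0.1 FPKM in all 3 libraries. The localized library was not without keratins: Krt8 had 765 FPKM and Krt18 227 FPKM there, although Epcam had 0.209 FPKM and Ocln was at 0. The part of these marker differences in the proteoglycan values was not tested.

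Markers of other cell types differed widely in level. Endothelial markers summed to 0.246, 0.562 and 0.253 FPKM. Leukocyte markers summed to 4.88, 11.1 and 10.3 FPKM, nearly all from Cd68, with Cd3e and Emr1 at 0. Pericyte and smooth muscle markers summed to 17.5, 6.05 and 1.02 FPKM, mostly Acta2 (16.3, 4.76 and 0.461 FPKM). Markers of cartilage and bone, tissues rich in these proteoglycans, summed to 49.6, 61.2 and 39.2 FPKM, and their members differed in direction. Alpl was higher against localized in both lines with 0.075, 19.1 and 17.3 FPKM, Acan was lower in the metastatic library with 19.8, 10.6 and 3.86 FPKM, and Sox9 and Runx2 had 17.5, 23.3 and 11.4 FPKM and 11.9, 8.21 and 6.65 FPKM. Acinar and islet markers summed to 7.58, 1.20 and 0.465 FPKM with Cpa1, Ins1, Ins2 and Gcg at 0. Hepatocyte markers summed to at most 0.059 FPKM and skeletal muscle markers to at most 0.209 FPKM. Mesothelial markers summed to 106, 291 and 410 FPKM, nearly all from Msln, which pancreatic tumour cells also express, with Wt1 at 0.

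Genes whose level ran closest to a member were found over the 3 libraries by Euclidean distance in log2(FPKM + 1), among 10794 named genes with a mean of at least 1 FPKM. Closest to Bgn were both type I collagen genes, Col1a2 (distance 1.80) and Col1a1 (2.73), followed by the trefoil peptide Tff1 (2.96). Closest to Dcn were Sod3 (0.694), Osr1 (0.704) and Dkk2 (0.872), an extracellular superoxide dismutase, a transcription factor and a Wnt antagonist. Closest to Mgp were the kinase Sgk1 (1.19), the chemokine Ccl7 (1.48) and the mesenchymal factor Prrx1 (1.55). Closest to Serpinf1 were the protease Htra1 (1.08), Tff1 (1.09) and Arhgdib (1.25). Prelp had much nearer neighbours, Zkscan14 (0.032) and Diexf (0.068), as its level was nearly flat at about 3 FPKM. Likeness over 3 libraries describes these values only.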

How the data were processed

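RNA-seq libraries of 3 cell lines, 1 per stage, were analysed from 1 table of FPKM values per gene, deposited by the authors. Cufflinks 2.2.1, STAR 2.5.2a and FastQC 0.11.2 are listed with GRCm38, without roles, per the submitters' processing notes, and the sources used here do not give strandedness. Libraries were prepared from 1 ug of total RNA with an Illumina TruSeq kit, per the labels' protocols. The lowest deposited FPKM was exactly 0.1 in each column, so 0.1 was subtracted. Of 22784 entries, 27 carried a date number in place of a symbol and were left out, as were 23 genes of short or structural RNAs, which left 22734.

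Differences were taken in log2(FPKM + 1), with calls at 2-fold and a background of 11404 genes with a mean of at least 1 FPKM. No p-value was computed, since n = 1 per stage. Depth was estimated as the number of fragments, with a length correction of 180 bases, at which most low values of single-transcript genes (GENCODE M21 lengths, 800 to 6000 bases) came within 0.1 of a whole fragment. Intervals are exact conditional (Clopper-Pearson) 95% intervals on rounded fragments of the principal transcript, and a floor of 3 fragments stood in for 0. Depth estimate and calls were tested on simulated data. These held counting error only and no changed genes as low as Lum or Ogn, so they cannot speak for spread between cultures or for calls of low genes. The 3 symbols Wisp1, Ctgf and Emr1 were matched through RefSeq synonyms. Alternatives were another pseudocount, no subtraction, other filters, both rescalings and other call folds. The analysis used Python 3.11.15, numpy 2.4.6, pandas 2.3.3 and scipy 1.17.1.

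The members and lists were chosen with earlier results of these data known. Named were all members and other family members, up to 4 genes per list by largest difference, defining markers, flanking genes and the 3 nearest genes per abundant member; exceptions are marked. One allele of the genotype label and some genes that this rule would name are not reported here.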

Additional observations from a re-analysis of the deposited data

How the results depend on the processing

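The number of the 9 genes past 2-fold stayed at 5 to 7 for invasive against localized, at 5 or 6 for metastatic against localized and at 3 for metastatic against invasive under another pseudocount, no subtraction of 0.1, both rescalings and a call at 1.5-fold. At 4-fold it was 4, 4 and 3, without Lum and Ogn. Aspn was added with a pseudocount of 0.1 and Ogn was lost without subtraction. Of 108 recomputed differences of single genes, 73 moved by less than their counting error, 35 by more and 0 of those called changed sign. Dcn, for example, went from -5.69 to -8.32 for invasive against localized with a pseudocount of 0.1. Over all genes, 1693, 1866 and 343 were past 2-fold (invasive against localized, metastatic against localized, metastatic against invasive). At 4-fold these were 612, 707 and 55, and at 1.5-fold 3088, 3423 and 1010, by construction. With a pseudocount of 0.1 the last comparison gave 600. No paired analysis was possible because each stage has 1 library, and for the same reason no replicate could be left out. Depth limits Fmod, Aspn, Lum, Ogn and Dcn in the invasive and metastatic libraries, where 0 to 5 fragments carry each value.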

Other observations

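Proteoglycan core proteins outside the leucine-rich family went both ways. Of 27 listed genes, 9 were at least 2-fold lower and 4 higher invasive against localized, beside 6.07% and 8.78% of all genes past the filter. Metastatic against localized, 11 were lower and 4 higher, beside 7.29% and 9.08%. Metastatic against invasive, 5 were lower and 3 higher, beside 1.67% and 1.33%. The medians were -1.02, -1.23 and -0.21 over the 17 genes with a mean of at least 1 FPKM. Most listed genes below that mean were too near 0 in every library to be called. Esm1, a dermatan sulfate proteoglycan of vessels, had 37.8, 1.78 and 0 FPKM in the localized, invasive and metastatic libraries. Cspg4, known as NG2 on pericytes and progenitors, had 33.7, 1.08 and 0.012 FPKM, in the same order of libraries as Bgn and Mgp. Glypican 4, Gpc4, had 21.6, 0.667 and 2.23 FPKM, so its lowest value was in the invasive library. The testican Spock3 had the opposite order with 0.015, 7.59 and 22.1 FPKM. The other genes higher in both comparisons with the localized library, named after their values were seen, were the epithelial syndecan Sdc1 (98.3, 331 and 324 FPKM), Col18a1, whose product carries heparan sulfate in basement membranes (33.5, 195 and 210.3 FPKM), and Ptprz1 (0, 1.32 and 4.87 FPKM). Summed over the list, core protein levels were 697, 834 and 784 FPKM.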
